A study of Mus musculus with 4 samples.

Results

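The loci described here are windows of the mouse genome around 8 genes that encode core transcription factors of the heart: Gata4, Nkx2-5, Tbx5, Tbx3, Mef2c, Mef2a, Hand2 and Tead1. A peak was counted for a gene when its midpoint lay in the gene's window, and 16 of the 4012 peaks in the deposited list did so. The peaks come from chromatin immunoprecipitation followed by sequencing (ChIP-seq), which sequences the DNA fragments that come down with a chosen protein and calls as peaks the places where they pile up over a control. The protein was Tbx20 fused to green fluorescent protein (GFP), pulled down with a goat antibody against GFP, and the tissue was the whole adult heart of CD1 mice at 2 months of age. The series also holds 3 inputs, DNA of whole hearts of the same strain taken before any pull-down. They are labelled as embryonic (inputs 1 and 2 at E11.5, input 3 at E9.5), although the immunoprecipitated hearts were adult. Whether the peaks were called against these inputs is not given in the sources used here. There was 1 immunoprecipitate, so no spread between animals can be given, and the number of sequenced reads is unknown. The labels used here do not state which promoter drives the tagged protein or how many hearts were pooled, and in whole heart chromatin a missing peak and binding in a small share of the cells cannot be told apart.

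Tbx20 is a T-box transcription factor, one of a family that recognises DNA words built on GGTGT. In heart cells it works together with the zinc-finger factor Gata4 and the homeodomain factor Nkx2-5, and the T-box proteins Tbx5 and Tbx3 recognise similar words, Tbx5 mostly as an activator and Tbx3 mostly as a repressor. Transcription factors of this network bind near one another's genes, so the genes that encode them are natural places to look for Tbx20. The question put to the list was which of these loci carried Tbx20-GFP peaks in the adult heart, and how many against the density of peaks on the autosomes.

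No sequence of the mm9 build, on which the peaks lie, was used here, so the bases under the peaks are not printed. The stretches below are the 250 bases before the RefSeq start of 3 of the genes, on the build GRCm38.p6, shown because these genes' windows held 0, 1 and 3 peaks and each has 1 start in the table. Their positions are on that build and cannot be set beside the mm9 positions of the peaks. Capitals mark the core T-box word, GGTGT or its reverse complement ACACC.
Nkx2-5, chr17:26841566-26841815, minus strand: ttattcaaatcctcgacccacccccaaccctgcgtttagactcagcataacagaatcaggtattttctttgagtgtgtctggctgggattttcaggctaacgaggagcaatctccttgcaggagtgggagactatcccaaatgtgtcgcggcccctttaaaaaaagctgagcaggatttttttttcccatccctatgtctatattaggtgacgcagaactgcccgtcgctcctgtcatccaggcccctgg
Hand2, chr8:57320733-57320982, plus strand: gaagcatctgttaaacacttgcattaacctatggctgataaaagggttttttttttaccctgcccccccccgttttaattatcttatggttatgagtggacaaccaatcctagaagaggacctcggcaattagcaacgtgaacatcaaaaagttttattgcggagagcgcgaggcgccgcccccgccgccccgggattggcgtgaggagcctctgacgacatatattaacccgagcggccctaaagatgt
Mef2a, chr7:67372859-67373108, minus strand: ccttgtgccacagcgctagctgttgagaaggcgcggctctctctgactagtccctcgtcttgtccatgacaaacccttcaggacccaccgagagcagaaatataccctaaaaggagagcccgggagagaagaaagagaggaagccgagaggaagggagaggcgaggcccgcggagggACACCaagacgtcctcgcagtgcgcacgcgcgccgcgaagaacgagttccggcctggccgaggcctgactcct
The word occurred in 1 of these stretches, that of Mef2a, where its first base lay 73 bases before the start. Across all 32851 promoters in the table, 36.2% held it on either strand in the same length, so a match or its lack is a description of these letters and not of binding. The word AAGTG of the NKX2 homeodomain factors, searched on both strands like the others, was found once, before Hand2. There it overlapped a CANNTG word, the kind bound by helix-loop-helix factors. In all, CANNTG occurred 2 times before Hand2 and 1 time before Nkx2-5. Of all promoters, 40.7% held AAGTG and 66.2% held CANNTG. The stretch before Hand2 also held the GATA word AGATAA, on the opposite strand 172 bases before the start, a word found in 9.99% of all promoters. The TEAD word GGAATG was in none of the 3 stretches and in 12.6% of all promoters. Of the 8 genes, Mef2c was the fourth with promoter sequence in the table, with 3 starts. The core T-box word lay before 2 of these, 215 and 170 bases from the start, and GGAATG before the remaining one, 75 bases from the start. AAGTG was found 1 time before each of the 3. Gata4, Tbx5, Tbx3 and Tead1 had no promoter sequence in the table, so they were not searched.

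Tbx20-GFP peaks lay in 6 of the 8 windows. The autosomes were cut into consecutive tiles of each window's length, and the shares of tiles with a peak would give 2.29 such windows. The windows around Gata4 and Tead1 held 4 peaks each, those around Tbx3 and Mef2a held 3 each, and those around Mef2c and Hand2 held 1 each. The windows around Nkx2-5 and Tbx5 held no peak. Together the windows spanned 2.02 Mb, and their 16 peaks (95% exact Poisson interval 9.15 to 25.98) compare with 3.37 at the density of the other autosomal DNA, which was 1.67 peaks per Mb. This is a ratio of 4.75, with an interval of 2.72 to 7.72. The interval covers counting error only and treats peaks as independent. The genes and windows were chosen with earlier results of these data known, so the ratio describes these windows and is not an independent test. The other autosomal DNA includes long stretches without genes, and the part of gene density in the ratio was not tested.

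**Figure D1:**
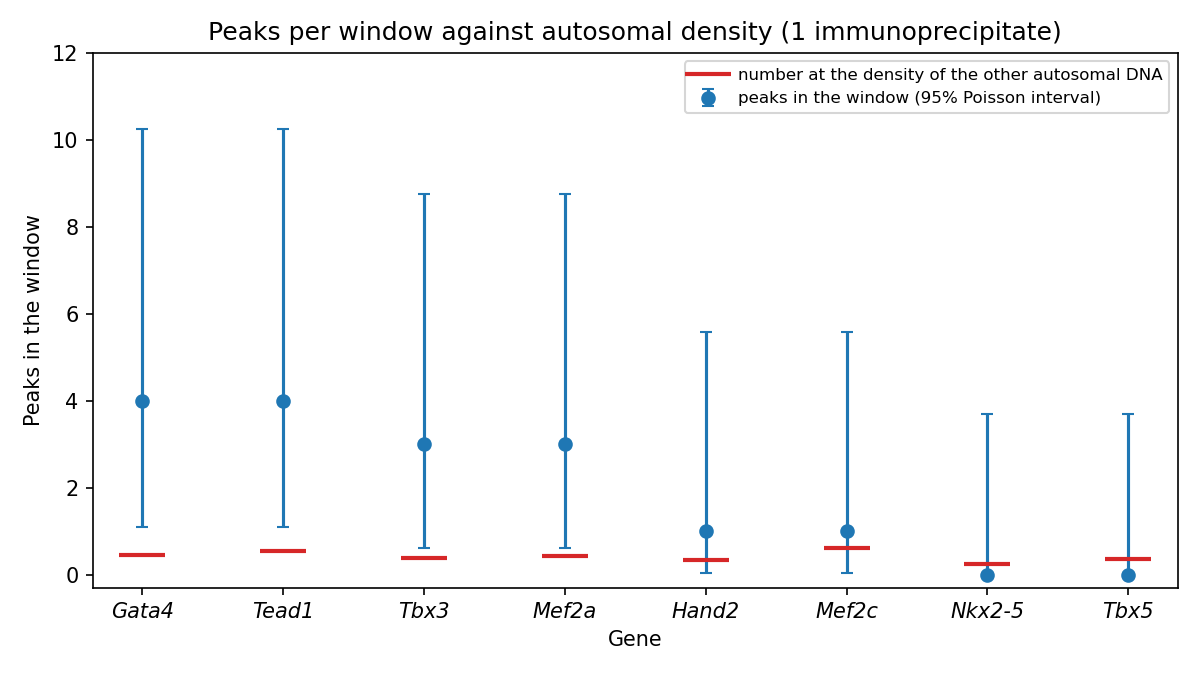
Number of Tbx20-GFP peaks in each gene's window (points, with 95% Poisson intervals for counting error) and the number that the density of the other autosomal DNA gives for a window of that length (red bars), for 1 immunoprecipitate. The intervals of Gata4, Tead1, Tbx3 and Mef2a lie above their bars, and those of Hand2, Mef2c, Nkx2-5 and Tbx5 include them. They treat peaks as independent, in windows chosen with earlier results known, so this is a description and not a test per gene. With peaks within 500 bp merged, Mef2a has 2 peaks. Among the 2006 better-scoring peaks, Gata4 has 1 and Tbx3 has 2. Intervals were not drawn for these settings.

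Gata4 encodes a zinc-finger factor needed for heart formation and for the growth of adult heart muscle. Its window, chromosome 14 from 63.70 to 63.97 Mb, held 4 peaks against 0.450 at the autosomal density (interval of the count 1.09 to 10.2). Of 8789 consecutive autosomal tiles of that length, 30.4% held at least 1 peak and 0.876% held at least 4. The highest-scoring of them, chr14:63829284-63829528, also led all 8 windows. Its score, the authors' normalized read number for a peak, was 88.9, it ranked 89 in the whole list, and 97.8% of autosomal peaks scored lower. It lay near the middle of the window, 5.59 kb from the centre, and 17.3 kb from the next peak, chr14:63811980-63812170, which scored 8.94. The other two were chr14:63864199-63864330 at 20.8 and chr14:63712632-63712763 at 22.4, and at 131 bp each they were among the narrowest peaks of the list, with 2.24% of autosomal peaks narrower. Scores at this locus thus spread widely, with 1 high peak and 3 below the autosomal median.

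Nkx2-5 encodes a homeodomain factor that is among the earliest marks of heart muscle cells. Its window, chromosome 17 from 26.90 to 27.05 Mb, was the shortest at 150 kb, and 0.250 peaks would lie there at the autosomal density. The exact 2-sided 95% Poisson interval of a count of 0 reaches up to 3.69 peaks, so the empty window does not show a density below that of the autosomes. Of 15827 autosomal tiles of this length, 19.5% held a peak. The nearest peaks outside were 260 kb below the window, with a score of 16.0, and 171 kb above it, with a score of 7.53.

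The T-box pair Tbx3 and Tbx5 are neighbours on chromosome 5, where their windows adjoin at 120.23 Mb, and all peaks lay on the Tbx3 side. Tbx3, a repressor that keeps conduction tissue distinct from working heart muscle, had 3 peaks in the window from 120.00 to 120.23 Mb, against 0.383 at the autosomal density. Of tiles of that length, 26.9% held a peak and 2.26% held at least 3. The peak chr5:120101705-120102167 scored 60.2, above 93.0% of autosomal peaks, and at 462 bp it was the widest peak of the 8 windows. The peak chr5:120120628-120120861, 18.8 kb further on, scored 34.0. The third, chr5:120047724-120047897, scored 4.18, the lowest score of the 16 and above only 2.19% of autosomal peaks.

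Tbx5, an activator needed for the atria and the conduction system, had no peak in its window from 120.23 to 120.45 Mb, where 0.367 would lie at the autosomal density and where 26.3% of tiles of that length held a peak. The nearest peak below was the one at 34.0 in the Tbx3 window, 109 kb from the shared boundary. Above, the next peak, with a score of 32.2, lay 564 kb away from the window. The upper limit of 3.69 peaks for a count of 0 holds here too.

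The MEF2 genes encode MADS-box factors that switch on muscle genes. Mef2a, the main member in adult heart muscle, had 3 peaks in its window on chromosome 7 from 74.32 to 74.57 Mb, against 0.417 at the autosomal density. Of tiles of that length, 28.8% held a peak and 2.59% held at least 3. A close pair made up most of it: chr7:74517673-74517874 scored 33.3 and chr7:74517921-74518289 scored 51.9, with a gap of 47 bp between them. The wider of the pair, at 368 bp, stood at place 64 in the deposited list. The third peak, chr7:74367290-74367499, lay 150 kb away and scored 21.9. With peaks at most 500 bp apart counted as 1, the locus would have 2 peaks and the 8 windows 15.

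Mef2c, the member needed for early heart growth, had 1 peak in the longest window, 370 kb of chromosome 13 from 83.54 to 83.91 Mb, against 0.617 at the autosomal density. Of tiles of that length, 38.2% held at least 1 peak, so a single peak there is close to the background. It was chr13:83675384-83675546, 162 bp wide, with a score of 32.3. This peak stood alone, with its nearest neighbour 643 kb away and no further peak for 7092 kb above the window.

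Hand2, a helix-loop-helix factor needed for the right ventricle, had 1 peak in its 200 kb window on chromosome 8 from 59.70 to 59.90 Mb, against 0.333 at the autosomal density and 24.3% of tiles with a peak. It was chr8:59782435-59782575, 140 bp wide, with a score of 14.2, below the autosomal median. A much higher-scoring peak lay just outside, chr8:59683963-59684227 with a score of 86.5, 15.9 kb below the window's edge. That peak is not counted for Hand2 by the rule. Above the window no peak was listed for 3071 kb.

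Tead1 encodes a TEA-domain factor that binds promoters of muscle genes and carries signals of the Hippo pathway. Its window on chromosome 7 from 119.77 to 120.10 Mb held 4 peaks against 0.550 at the autosomal density. Of tiles of that length, 35.0% held a peak and 1.18% held at least 4. The peaks were spread over 229 kb, with a pair 3.94 kb apart. Their scores were 44.1 for chr7:119803835-119804238, 30.9 for chr7:119885214-119885587, 24.5 for chr7:120029009-120029397 and 13.3 for chr7:120033065-120033214. The first 3 were broad, at 403, 373 and 388 bp, wider than 86.4 to 89.8% of autosomal peaks, and the last was 149 bp. All 3 broad Tead1 peaks were wider than every Gata4 peak, of which the widest was 244 bp.

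**Figure D2:**
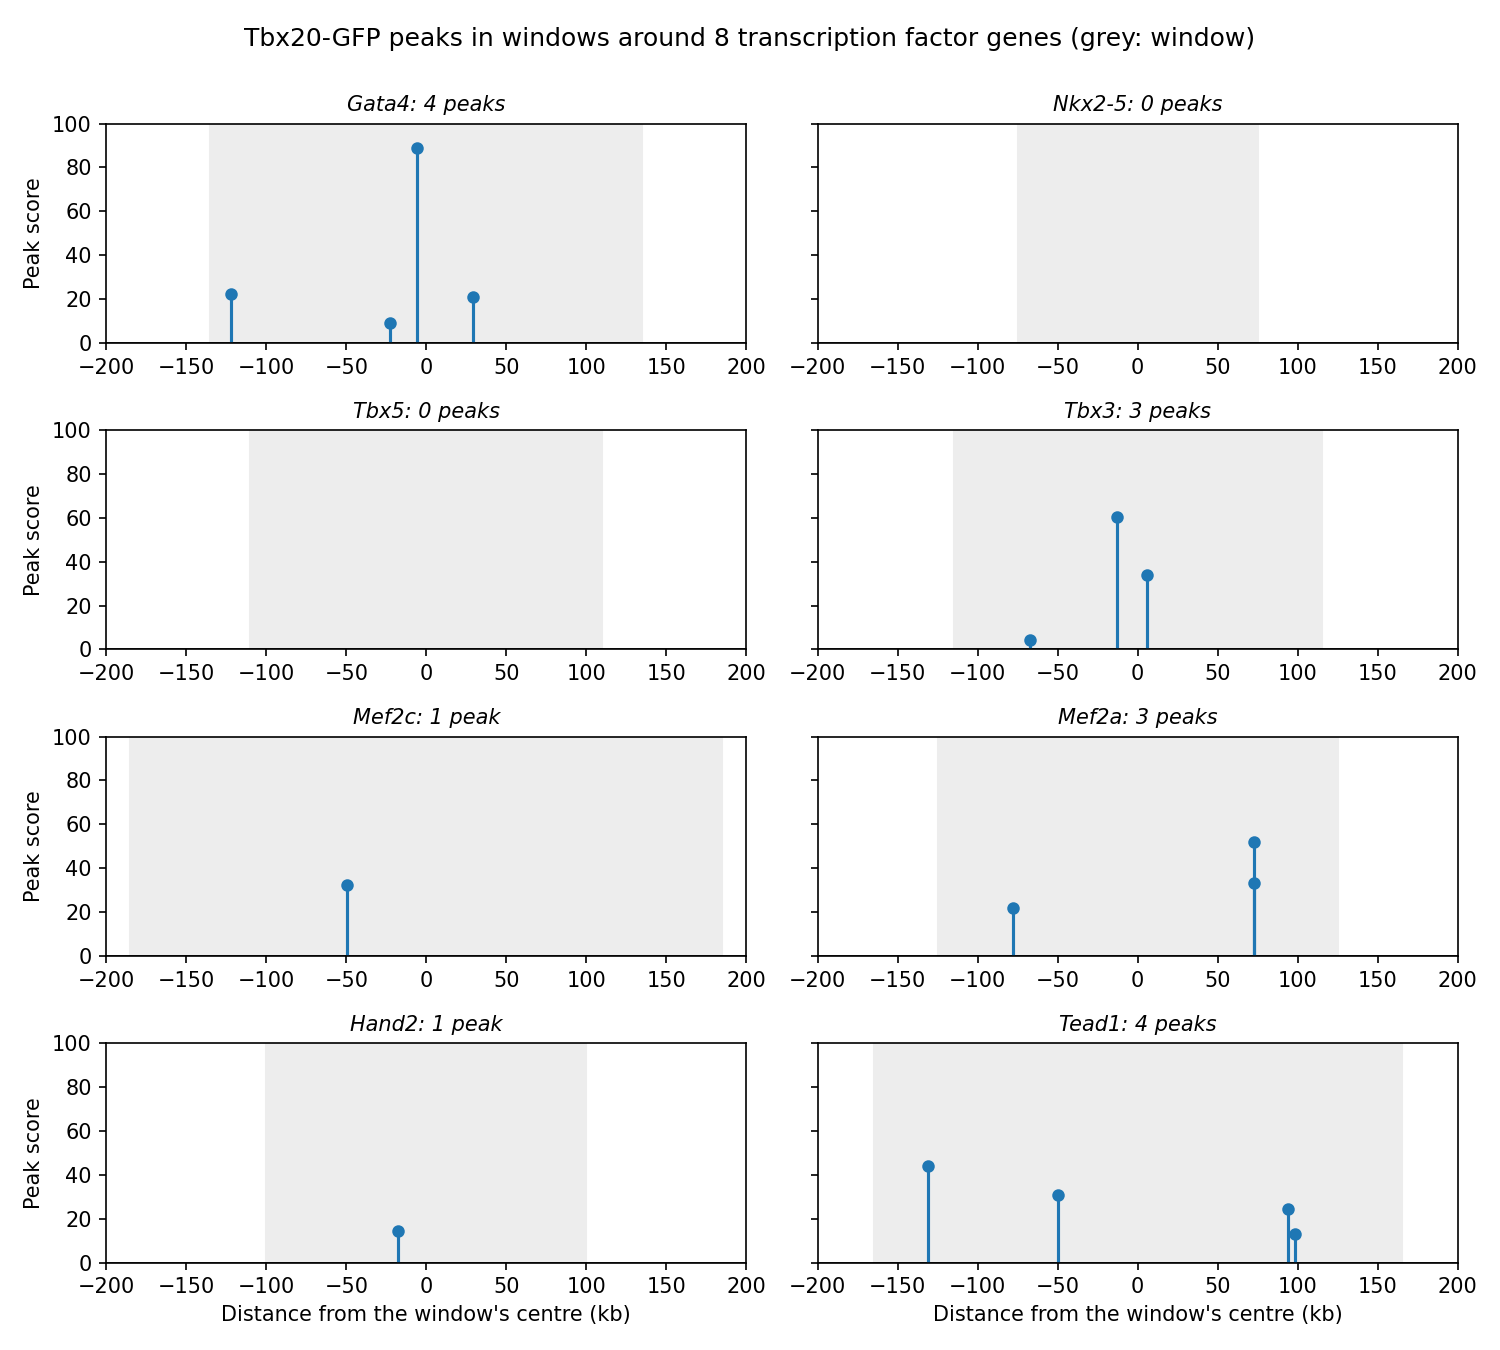
Position of each Tbx20-GFP peak as distance from the centre of its gene's window (kb, grey area) and its score (height of the line and point) in the 8 windows. The Gata4 peak at 88.9 stands near the centre of its window, the Mef2a pair overlaps at this scale, and the Nkx2-5 and Tbx5 windows are empty.

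By the edges of the windows, the outermost peaks inside lay 12.7 kb (Gata4, score 22.4) to 135 kb (Mef2c) from the lower edge and 51.9 kb (Mef2a) to 235 kb (Mef2c) from the upper edge. Within 50 kb outside any window there were 2 peaks, the one beside Hand2 at 86.5 and chr14:64004208-64004469 at 35.3, which lay 34.3 kb above the Gata4 window. Further out, a peak with a score of 67.8 lay 133 kb below the Mef2a window and one at 57.8 lay 64.8 kb below the Tead1 window. The windows may also hold parts of other genes. On GRCm38.p6 the nearest coding genes by start in the RefSeq table were Neil2 and Blk beside Gata4, Bnip1 and Kifc5b beside Nkx2-5, Med13l before Tbx3 and Rbm19 after Tbx5. They were Cetn3 and Tmem161b beside Mef2c, Lysmd4 and Lrrc28 beside Mef2a, Fbxo8 and Scrg1 beside Hand2, and Parva and Rassf10 beside Tead1. A peak in a window is therefore a peak near the gene, not one assigned to it.

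The peaks of the windows were set beside the other autosomal peaks in score, width and distance to a neighbour. Their median score was 27.7 (exact binomial 95% interval of the median 14.2 to 44.1, n = 16) beside 22.9 for the 3956 other autosomal peaks, a value inside that interval. The scores ran from 4.18 to 88.9, so the windows held both weak and strong peaks of the list. The median width was 205 bp (interval 149 to 373) beside 226 bp. Among the 2006 better-scoring peaks, a setting chosen for width after seeing the data, the order turned: the 9 window peaks had a median of 368 bp beside 236 bp for the other 1989 on autosomes. Of these 9 peaks, 3 were the broad Tead1 peaks of 373 to 403 bp. No median without the Tead1 window was computed for this setting, so the turn is not read as a trait of the windows as a whole. Of the 16 widths, 5 were at or above the upper quartile of the other peaks, which took in 25.1% of them, and 5 were below the lower quartile, which took in 24.7%, so neither count stands far from the background. From a window peak to its closest neighbour the median distance was 26.8 kb, beside 112 kb for the others. Another peak lay within 100 kb of 14 of the 16, beside 47.7% of the other autosomal peaks, and within 10 kb of 4 of them, beside 11.0%. These 4 were the Mef2a pair and the Tead1 pair. No test was made of these differences, and peaks of 1 window are neighbours of each other, so the counts are not independent. Windows with several peaks bring those peaks close together, so the short distances partly restate the number of peaks per window.

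**Figure D3:**
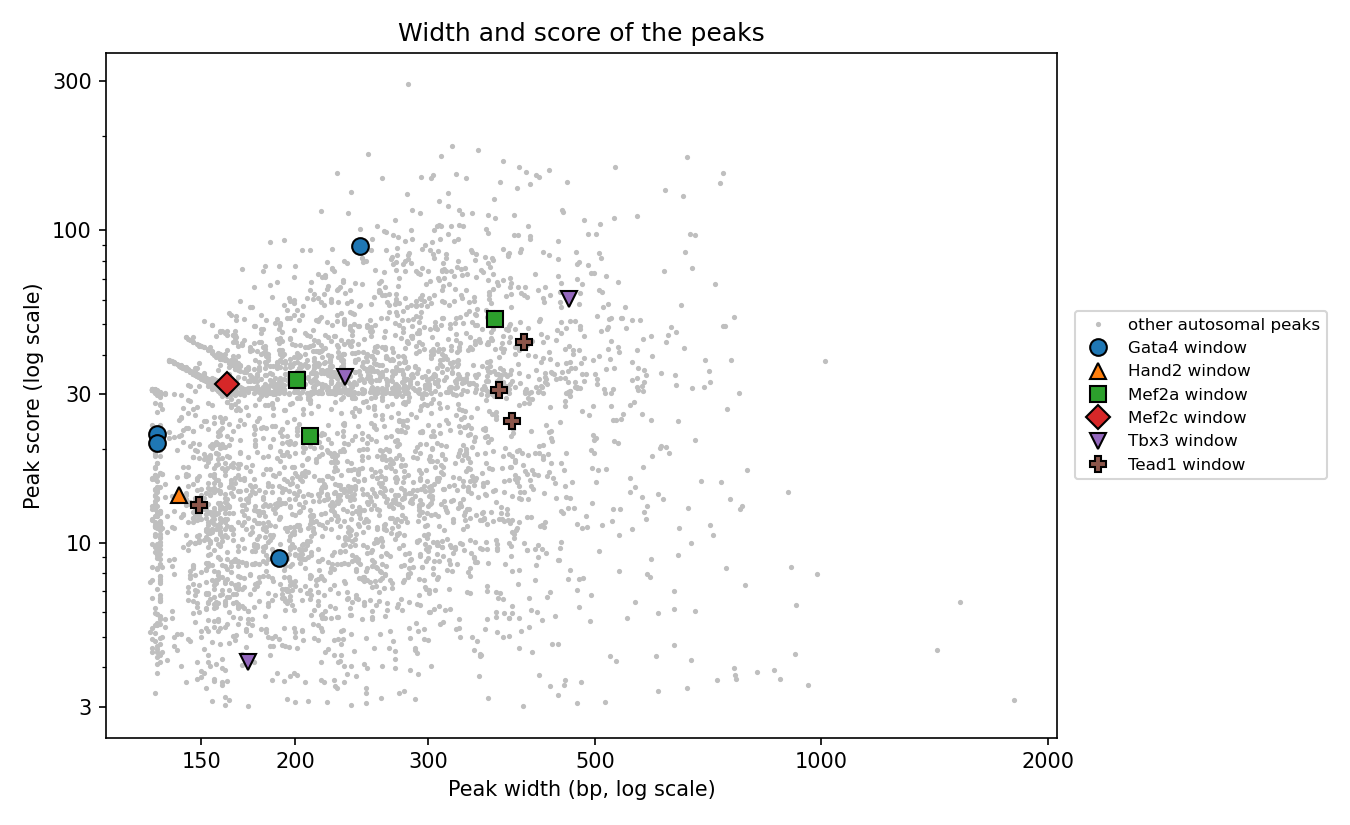
Width (bp) and score of the 16 peaks in the windows (coloured symbols by gene) and of the 3956 other autosomal peaks (grey), both on log scales. The coloured symbols lie within the grey cloud, with 3 of the 4 Tead1 peaks to its wide side and 2 Gata4 peaks at 131 bp at its narrow edge.

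Score and place in the list were compared peak by peak. For each peak a ceiling was taken as the highest score from its place in the list onward, and 7 of the 16 peaks lay within 2% of it, beside 36.2% of other autosomal peaks. These were the highest Gata4 peak, the Mef2c peak, the Mef2a peak at 33.3, the Tbx3 peaks at 60.2 and 34.0 and the Tead1 peaks at 44.1 and 30.9. The Mef2a peak at 51.9 was listed far earlier than its score would place it and reached 38.1% of its ceiling. The lowest-scoring Tbx3 peak reached 11.7%. A rank by score and a rank by place therefore differed for some of these peaks, as they did for other autosomal peaks. Of the 16 peaks, 9 stood among the first 2006 in the list, beside 49.8% of other autosomal peaks. The 2 shares of the window peaks, 43.75% near the ceiling and 56.25% among the first 2006, are close to those of the others. Neither is read as a trait of these loci.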

How the data were processed

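By their titles, the samples are 1 immunoprecipitate and 3 inputs, of which only the former has values used here. The authors called peaks with QuEST and deposited each accepted peak with a score, which their note calls a normalized read number without saying by what. The submitters' processing notes name mm9 as the build. Starts and ends are printed unchanged, and whether starts count from 0 is not stated. Aligner, thresholds and the use made of the inputs: not given in the sources used here. The score was used only to describe and rank peaks within the list.

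The genes, windows and properties compared were chosen with earlier results of these data known. All 8 genes and all 16 peaks are named, by a rule covering up to 40 peaks. Autosomal length ran from the first to the last peak of each chromosome, less the windows. Tiles were consecutive and did not overlap. No test was made, because there is 1 sample; 95% intervals cover counting error only. The counting was tested on simulated data, in which peaks were placed at random and independently. That check covers the counting and not how well the intervals fit the listed peaks. Motifs in peaks, protein comparisons and a list of further network genes were planned and not run, since the sequences and annotation they need were not used here. The search of promoters was added later. The tools were Python 3.11.15, scipy 1.17.1, numpy 2.4.6, matplotlib 3.10.9 and pandas 2.3.3.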

Additional observations from a re-analysis of the deposited data

How the results depend on the processing

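The ratio to autosomal density was 3.97 with windows widened by 50 kb, 5.29 narrowed by 20 kb, 4.49 with peaks within 500 bp merged, 4.75 with any overlap, 4.90 with autosomes taken from position 0 and 5.23 for the 2006 better-scoring peaks. In settings chosen after seeing the data it was 5.24 for the first 2006 peaks listed, and 4.11 to 5.45 when each window with a peak was left out in turn. Each value lies within the interval of the reported ratio. The settings draw on the same list of peaks and that interval is wide, so this is not independent support. The number of peaks in the windows fell to 9 among the better-scoring peaks, with 1 for Gata4 and 0 for Hand2, and to 9 among the first listed, with 2 for Gata4, 1 for Tbx3 and 0 for Mef2c, since these settings keep fewer peaks by construction. In both, 5 windows held a peak, and Nkx2-5 and Tbx5 held none under any setting run. Tile shares were not computed for these shorter lists. Widening gave Hand2 2 peaks, by including its neighbour at 86.5. Median score ran from 24.5 to 31.6. Median width ran from 190 to 244 bp, except among the 2006 better-scoring peaks, a setting added for width after seeing the data, where it was 368 bp beside 236 bp for the other autosomal peaks, a turn from the reported 205 beside 226 bp. Of the 9 window peaks in that setting, 3 came from the Tead1 window, and leaving it out was not run there. Starting the tiles in mid-length left each share of tiles with a peak within its exact binomial interval. No paired analysis was possible because there was 1 immunoprecipitate. The unknown read depth limits what an empty window shows.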
